A study of Mus musculus with 11 samples.

Results

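The genes described here encode the enzymes of sterol and fatty acid synthesis, the proteins that set their transcription, and the liver X receptor (LXR) branch that senses oxidised sterols. They were taken by gene symbol: 37 of the 48593 genes in the deposited table, all 37 with a mean of at least 10 normalized reads and so all tested. Of these, 7 act in the mevalonate pathway, 11 in sterol synthesis from squalene on, 6 regulate sterol regulatory element-binding proteins (SREBPs) or carry sterols, 10 make, elongate or desaturate fatty acids, and 3 are the LXR Nr1h2 and its targets Abca1 and Abcg1.

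RNA was sequenced from germinal center (GC) B cells sorted from mouse spleen as B220+/PNA+/CD95+ cells, 12 days after injection of sheep red blood cells. The libraries labelled CBP-KO, called Crebbp-KO here, came from Crebbp fl/fl mice with intact Ep300 (3 libraries: CBP-KO_1, CBP-KO_53 and CBP-KO_55). Those labelled p300-KO, called Ep300-KO, came from Ep300 fl/fl mice with intact Crebbp (3 libraries: p300-KO_18, p300-KO_287 and p300-KO_289). The WT libraries came from mice with both genes intact (5 libraries: WT_4, WT_7, WT_41, WT_46 and WT_288). Values per library are normalized reads and follow these orders throughout. Every mouse, WT included, carried 1 Cg1cre allele, in which Cre is expressed from the immunoglobulin gamma 1 constant region locus and so acts in B cells that enter the GC reaction. The litter of each library is not known, so a difference between crosses cannot be told apart from the loss of Crebbp or of Ep300. The number of WT_288 lies between those of p300-KO_287 and p300-KO_289, and what these numbers stand for is not given. Sex, age, litter and batch are not given in the sources used here.

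Cells make cholesterol from acetyl-CoA through mevalonate, isoprenoid diphosphates, squalene and lanosterol. When sterols in the endoplasmic reticulum are low, SCAP escorts SREBPs to the Golgi, where they are cleaved, and the released fragments enter the nucleus and activate most genes of the pathway; SREBP2 acts mainly on sterol genes and SREBP1c on fatty acid genes. INSIG proteins hold SCAP back when sterols are plentiful, while LXRs, activated by oxysterols, raise the cholesterol exporters Abca1 and Abcg1. CREBBP and EP300 are related lysine acetyltransferases that act as coactivators of many transcription factors. GC B cells divide rapidly and need new membrane lipid.

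SREBPs act on promoters together with the factor NF-Y, which binds CCAAT boxes, so the promoters of 6 genes that were higher in Crebbp-KO than in Ep300-KO are shown to let those letters be read. Each line runs 5′ to 3′ in the gene's direction and ends at or before the annotated transcription start (RefSeq, GRCm38.p6). Where GENCODE places the first exon further upstream, the line stops before it. Capitals mark CCAAT or its reverse complement ATTGG, the E-box CACGTG, and TCACNCCAC, a form of the sterol regulatory element. The regions are chr13:119690101-119690350 (plus strand, Hmgcs1), chr5:114444019-114444268 (plus, Mvk), chrX:72918271-72918520 (plus, Nsdhl), chr1:169969242-169969455 (minus, Hsd17b7), chr9:42264301-42264550 (minus, Sc5d) and chr5:28071162-28071362 (plus, Insig1).
Hmgcs1: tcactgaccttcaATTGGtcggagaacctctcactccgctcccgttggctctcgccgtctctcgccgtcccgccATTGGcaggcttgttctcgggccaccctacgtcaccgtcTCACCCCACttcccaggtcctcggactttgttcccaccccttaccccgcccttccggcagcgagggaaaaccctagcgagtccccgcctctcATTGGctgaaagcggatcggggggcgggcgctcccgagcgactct
Mvk: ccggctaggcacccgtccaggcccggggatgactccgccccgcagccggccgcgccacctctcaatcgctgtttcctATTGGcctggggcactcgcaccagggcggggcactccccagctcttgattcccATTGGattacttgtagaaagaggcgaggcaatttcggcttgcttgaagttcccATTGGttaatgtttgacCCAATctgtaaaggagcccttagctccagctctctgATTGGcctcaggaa
Nsdhl: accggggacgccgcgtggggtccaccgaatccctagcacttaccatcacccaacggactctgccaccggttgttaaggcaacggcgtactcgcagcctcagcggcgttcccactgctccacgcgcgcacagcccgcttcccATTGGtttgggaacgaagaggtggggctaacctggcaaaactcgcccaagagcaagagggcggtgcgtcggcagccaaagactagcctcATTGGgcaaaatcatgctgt
Hsd17b7: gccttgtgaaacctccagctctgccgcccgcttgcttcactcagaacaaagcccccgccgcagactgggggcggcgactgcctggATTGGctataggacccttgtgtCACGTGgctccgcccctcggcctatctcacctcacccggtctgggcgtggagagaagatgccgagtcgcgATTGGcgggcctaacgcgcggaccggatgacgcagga
Sc5d: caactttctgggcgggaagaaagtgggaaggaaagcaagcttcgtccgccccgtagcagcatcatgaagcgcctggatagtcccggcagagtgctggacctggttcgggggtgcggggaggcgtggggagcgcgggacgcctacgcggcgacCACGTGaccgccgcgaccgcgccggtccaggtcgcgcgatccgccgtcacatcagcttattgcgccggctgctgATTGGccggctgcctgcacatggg
Insig1: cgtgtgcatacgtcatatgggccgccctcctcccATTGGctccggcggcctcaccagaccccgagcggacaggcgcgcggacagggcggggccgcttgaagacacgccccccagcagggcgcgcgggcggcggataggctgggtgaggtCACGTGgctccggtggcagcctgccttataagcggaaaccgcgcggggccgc

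RefSeq promoters were at hand for 29 of the 37 genes. Abcg1, Fads1, Fdft1, Fdps, Scd1, Scd2, Sqle and Stard4 had none. Each motif was searched on its own, on both strands, in the 250 bases before the start. CCAAT was in 21 of the 29 promoters, against 37.5% of 27025 genes with a promoter. It was in 5 of 6 mevalonate, 9 of 9 sterol, 4 of 5 SREBP regulator, 3 of 7 fatty acid and 0 of 2 LXR promoters. CACGTG was in 7 of 29, against 6.86% of all genes, and TCACNCCAC in 1 of 29, that of Hmgcs1, against 1.22%. The 10 promoters of genes called higher in Crebbp-KO than in Ep300-KO all held CCAAT, as did 11 of the 19 others. Most of the 10 belong to mevalonate or sterol enzymes, and Tm7sf2 and Ebp, not called in that contrast, held CCAAT too. This split cannot be told apart from pathway membership, and no link between CCAAT and the calls was tested. All of these are letter matches and say nothing of factor binding in these cells.

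The libraries held 53550726 to 132861266 reads in genes. Ep300 stood at 22789, 25741 and 23271 in Crebbp-KO, 14829, 14796 and 13773 in Ep300-KO, and 19310.3, 22238, 21460.3, 22498 and 20833 in WT and was lower in Ep300-KO than in WT (log2 -0.55 ± 0.06, limma adjusted p = 0.00015). Crebbp stood at 8595, 8606 and 7541 in Crebbp-KO, 10073, 10952 and 10218 in Ep300-KO, and 8163, 9584, 9443, 9156 and 7984 in WT, with no call in Crebbp-KO against WT (log2 -0.10 ± 0.07, limma adjusted p = 0.459). Reads were summed over whole genes, so the level of Crebbp does not check the deletion in the libraries labelled CBP-KO. WT_46 stood apart on the first principal component (57.7, against 11.3 to 28.3 in the other WT libraries), and p300-KO_18 held both Xist and Y-linked transcripts, so each call of the 37 genes that changes without 1 or both of them is given beside its gene. The sorted cells carried GC B cell markers at high level, with a sum over 12 genes of 542931 to 663105 normalized reads in Crebbp-KO, 619869 to 695292 in Ep300-KO and 608379 to 680504 in WT. Markers of macrophages summed to 2200 to 3211 in Crebbp-KO, 2949 to 4027 in Ep300-KO and 4027 to 10048 in WT over 16 genes, and 7 of 13 tested were lower in Crebbp-KO than in WT, against 1 in Ep300-KO. Markers of plasma cells summed to 76163 to 88091 in Crebbp-KO, 91170 to 103853 in Ep300-KO and 69014 to 84938 in WT over 7 genes. Sdc1, Xbp1 and Jchain were called higher in Ep300-KO than in WT (3 of 6 tested, against 5.84% of all genes tested). T cell markers summed to 136 to 187, 196 to 219.7 and 222 to 306 over 8 genes in the same order of groups, and the granulocyte genes S100a8, Ly6g, Mpo, Elane and Cxcr2 were at 0 in every library. The part of these other cells in the results below was not tested.

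Per kilobase of annotated exon, the most abundant member in WT was Scd1, the stearoyl-CoA desaturase, at 8193 ± 332 normalized reads in Crebbp-KO, 9069 ± 281 in Ep300-KO and 7597 ± 1019 in WT (SD, n = 3, 3 and 5 throughout). Srebf2, which encodes SREBP2, came after it, at 4805 ± 211 in Crebbp-KO, 4775 ± 229.6 in Ep300-KO and 5439 ± 293 in WT. Acly, which makes cytosolic acetyl-CoA from citrate, came next at 4815 ± 256, 4458 ± 199.7 and 4527 ± 276 in the same groups. Among sterol enzymes Cyp51, the lanosterol demethylase, was highest per kilobase in WT at 2760 ± 108 in Crebbp-KO, 2153 ± 316 in Ep300-KO and 2698 ± 249 in WT, and Lss, lanosterol synthase, was lowest at 389.8 ± 66.2, 281 ± 45.5 and 323 ± 41.4. The members lowest per kilobase in WT were Abcg1 at 32.0 ± 7.06 in Crebbp-KO, 88.5 ± 23.2 in Ep300-KO and 49.2 ± 13.2 in WT, and Acss2, an acetyl-CoA synthetase, at 56.2 ± 12.5, 69.7 ± 25.1 and 45.5 ± 9.81. Levels thus spanned a wide range between genes, while in WT Cyp51 and its neighbour Hmgcs1 (2533 ± 166 per kilobase) lay within each other's spread.

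**Figure D1:**
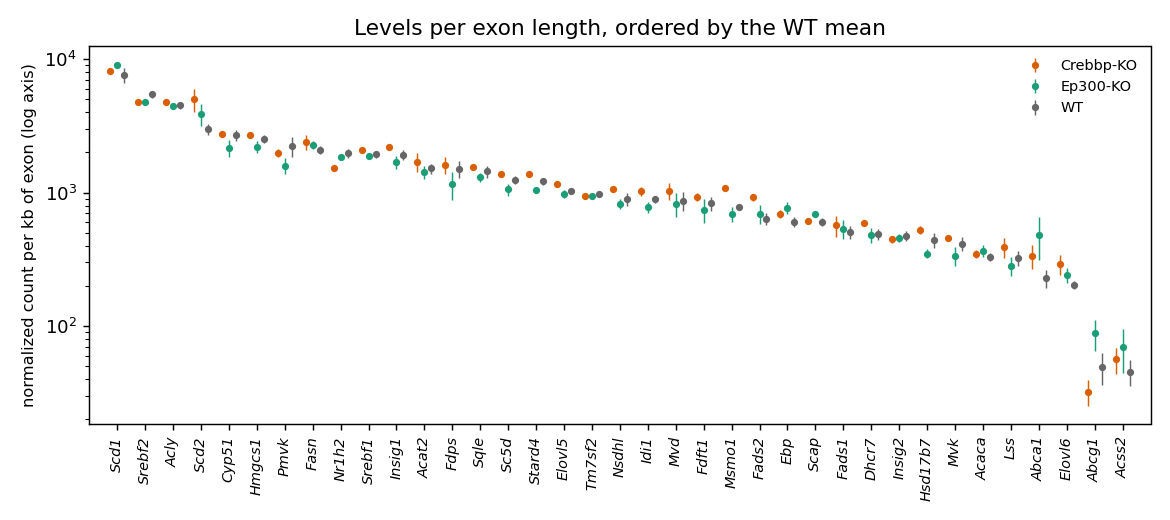
Mean level per kilobase of annotated exon for the 37 genes (y axis, normalized reads per kilobase, log axis), with genes along the x axis ordered by WT and SD over 3 Crebbp-KO, 3 Ep300-KO and 5 WT libraries. Scd1 lies at the top of the range, at 7597 in WT, and Acss2 at the bottom, at 45.5.

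The 3 comparisons that follow share libraries: WT enters both knockout contrasts, and each knockout also enters the direct contrast, so they are given side by side and are not independent of each other. In these bulk libraries, fewer cells of a type and less RNA per cell cannot be told apart. All fold changes are differences of mean log2(normalized read + 1), with SE, and a gene is called at a limma adjusted p below 0.05 over 16515 genes. The p-values measure the spread between libraries, each numbered as a sample of its own; the sources used here do not say whether each came from 1 mouse.

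Crebbp-KO and Ep300-KO differed from each other in 13 of the 37 genes, mostly sterol enzymes that were higher in Crebbp-KO. In Crebbp-KO against WT, 31 of 37 differences were above 0 (median log2 0.16, against 0.01 over all genes tested). In Ep300-KO against WT, 25 of 37 were below 0 (median -0.07, against -0.01 over all genes tested). In Crebbp-KO against Ep300-KO the median was 0.27, against -0.003 over all genes tested. The direct contrast is the one that tests a difference between the knockouts, and it held the most calls.

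In Crebbp-KO against WT, 5 of 37 genes were called, against a background of 8.36% of all genes tested. Msmo1, Scd2, Elovl6 and Fads2 were higher (4 of 37, background 3.48%) and Nr1h2 was lower (1 of 37, background 4.88%). Every Crebbp-KO library was above every WT library for 11 genes (background 8.43%) and below for 1 (background 8.47%). In Ep300-KO against WT, 7 genes were called (background 11.9%): Ebp, Abca1 and Abcg1 higher (3 of 37, background 5.84%), and Pmvk, Cyp51, Srebf2 and Stard4 lower (4 of 37, background 6.09%). The Ep300-KO libraries were all above WT for 4 genes (background 9.63%) and all below for 2 (background 9.4%). As shares of the 37 genes, the called were 13.5% in Crebbp-KO and 18.9% in Ep300-KO, above the background by a few genes.

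In Crebbp-KO against Ep300-KO, 13 of 37 genes were called (background 9.42%). Higher in Crebbp-KO were Hmgcs1, Mvk, Idi1, Cyp51, Msmo1, Nsdhl, Hsd17b7, Sc5d, Insig1, Stard4 and Elovl5 (11 of 37, background 4.79%), of which 8 are mevalonate or sterol enzymes. Lower were Nr1h2 and Abcg1 (2 of 37, background 4.63%). Every Crebbp-KO library was above every Ep300-KO library for 16 genes (background 15.5%) and below for 4 (background 15.6%). As shares of the 37 genes, 29.7% were called higher and 43.2% lay higher in all libraries, well above the background, while the 5.41% called lower were near it. The count of calls leaned on single knockout libraries: it was 6 without CBP-KO_53, 5 without CBP-KO_55, 8 without p300-KO_287 and 7 without p300-KO_289, and 18 without both WT_46 and p300-KO_18.

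The counts against WT moved with single libraries too. For Crebbp-KO against WT, 3 genes were called without CBP-KO_55. For Ep300-KO against WT, 4 were called without CBP-KO_53, WT_4 or WT_41, 3 without p300-KO_287, 1 without p300-KO_289 and 2 without WT_7, against 10 without both WT_46 and p300-KO_18.

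**Figure D2:**
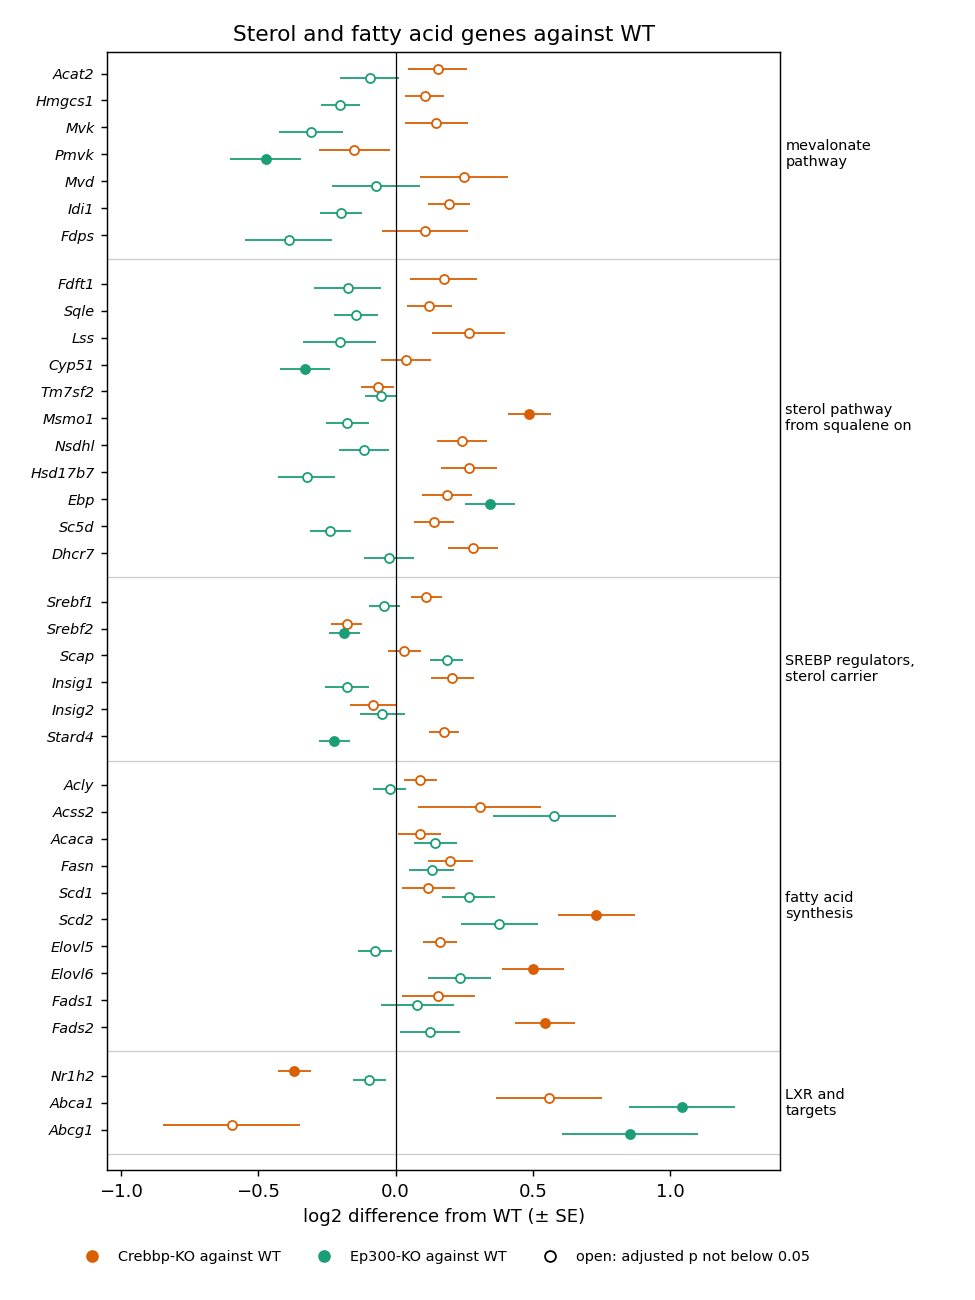
Log2 differences from WT (x axis, log2 of normalized read + 1) for each of the 37 genes, grouped by role, with Crebbp-KO drawn above Ep300-KO in each row and bars for the SE. Filled points were called at a limma adjusted p below 0.05: 5 for Crebbp-KO and 7 for Ep300-KO.

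Among the 7 mevalonate genes, levels in Crebbp-KO lay a little above WT (median log2 0.15) and those in Ep300-KO below it (median -0.20), and the knockouts differed by a median of 0.32. None of the 7 was called in Crebbp-KO against WT by limma, edgeR or DESeq2, and 1 had an unadjusted p below 0.05. Pmvk was called lower in Ep300-KO than in WT, and in the direct contrast Hmgcs1, Mvk and Idi1 were called higher in Crebbp-KO. The remaining 3, Acat2 (acetoacetyl-CoA thiolase), Mvd (mevalonate diphosphate decarboxylase) and Fdps (farnesyl diphosphate synthase), were called in no comparison, with direct differences of 0.25, 0.32 and 0.50 (limma adjusted p = 0.221, 0.295 and 0.0986). The direct difference of Fdps was called without p300-KO_18 (limma adjusted p = 0.049). In the annotation 26.7% of the exon length of Fdps is shared with Gm43738 on the same strand, a gene absent from the deposited data.

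Hmgcs1, the cytosolic synthase of HMG-CoA, the precursor of mevalonate, stood at 12686, 12099.8 and 12721 in Crebbp-KO, 11214, 10090.3 and 9095 in Ep300-KO, and 12474, 11941, 11714, 10401 and 11642 in WT. The 3 Crebbp-KO libraries lay above the 3 Ep300-KO libraries and within or just above the WT range. The difference between the knockouts was log2 0.31 ± 0.08, limma adjusted p = 0.0305, and it was not called without CBP-KO_1, CBP-KO_53, CBP-KO_55, p300-KO_287 or p300-KO_289 (limma adjusted p up to 0.0992). Against WT, Ep300-KO differed by -0.20 (limma adjusted p = 0.0869), which was called without p300-KO_18 or WT_46 (limma adjusted p = 0.0378 and 0.0324). In the annotation 12.1% of the exon length of Hmgcs1 is shared with Gm48342 on the opposite strand, and the library kit keeps no strand. Gm48342 is not among the genes of the deposited data.

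Mvk, mevalonate kinase, stood at 1206, 1212 and 1246 in Crebbp-KO, 1059, 781 and 851 in Ep300-KO, and 1125, 1102, 1277, 1139.8 and 897 in WT. Both p300-KO_287 and p300-KO_289 were below every WT library, p300-KO_18 was within the WT range, and all 3 were below Crebbp-KO. The direct difference was log2 0.46 ± 0.13, limma adjusted p = 0.0454, and it was lost without CBP-KO_1, CBP-KO_53, CBP-KO_55, p300-KO_287, p300-KO_289, WT_4 or WT_7 (limma adjusted p up to 0.153) and with edgeR (adjusted p = 0.0538). That call was also lost without the filter on low values. Against WT, Ep300-KO differed by -0.31 (limma adjusted p = 0.111), which was called without p300-KO_18 or WT_288 (limma adjusted p = 0.0454 and 0.0389).

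Pmvk, phosphomevalonate kinase, stood at 3294, 3248 and 3669 in Crebbp-KO, 3159, 2466 and 2576 in Ep300-KO, and 4049.5, 3402, 3979.7, 4702 and 2957 in WT. Its WT libraries spread widely, and the Ep300-KO and WT ranges overlapped. It was lower in Ep300-KO than in WT (log2 -0.47 ± 0.13, limma adjusted p = 0.0335), a call lost without p300-KO_287, p300-KO_289, WT_4 or WT_41 (limma adjusted p up to 0.133). Library weights and the fit of the compared groups alone lost that call too. In the direct contrast Pmvk had a log2 difference of 0.32 (limma adjusted p = 0.187).

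Idi1, the isomerase of isopentenyl diphosphate, stood at 3507, 3369 and 3878 in Crebbp-KO, 2925, 2448 and 2814 in Ep300-KO, and 3373, 3277, 2891, 3038 and 3068 in WT. Crebbp-KO libraries were near or above the top of WT and clear of Ep300-KO. The direct difference was log2 0.39 ± 0.08, limma adjusted p = 0.0126, lost without CBP-KO_55 alone (limma adjusted p = 0.0618). Of the exon length of Idi1, 9.22% is shared with Gm48574 on the opposite strand.

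Among the 11 enzymes from squalene on, the same ordering held, with medians of log2 0.19 in Crebbp-KO against WT, -0.17 in Ep300-KO against WT and 0.36 between the knockouts. The clearest member was Msmo1, which alone of the 18 mevalonate and sterol enzymes was called higher in Crebbp-KO than in WT, joined by Dhcr7 when p300-KO_18 was left out. Between the knockouts Cyp51, Msmo1, Nsdhl, Hsd17b7 and Sc5d were called higher in Crebbp-KO and none was called lower. Ebp was called higher and Cyp51 lower in Ep300-KO than in WT.

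Msmo1, the methylsterol oxidase that starts the removal of the methyl groups at carbon 4 of the sterol ring (chromosome 8, 64718139 to 64733792, GRCm38), stood at 6297, 6853 and 6831 in Crebbp-KO, 4796, 4205 and 3679 in Ep300-KO, and 4899.7, 4852, 4933, 4727 and 4352 in WT. The 3 Crebbp-KO libraries lay far above all 8 others, while Ep300-KO reached down from within the WT range. Group levels were 6660.4 ± 315 in Crebbp-KO, 4227 ± 559 in Ep300-KO and 4753 ± 237 in WT. Msmo1 was higher in Crebbp-KO than in WT (log2 0.49 ± 0.08, limma adjusted p = 0.0026) and than in Ep300-KO (log2 0.66 ± 0.09, limma adjusted p = 0.000662), and the difference between Ep300-KO and WT was not called (log2 -0.18, limma adjusted p = 0.175) except without p300-KO_18 (limma adjusted p = 0.0454). Both calls in Crebbp-KO were made in every alternative that was run.

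Nsdhl, which takes part in the same demethylation as the carbon 4 decarboxylating dehydrogenase, stood at 2952, 2964 and 3124 in Crebbp-KO, 2569, 2314 and 2182 in Ep300-KO, and 2657, 2431, 2825, 2761 and 2124 in WT. Crebbp-KO lay above every WT and every Ep300-KO library, by 0.24 over WT with no call (limma adjusted p = 0.127). The difference between the knockouts was log2 0.36 ± 0.10, limma adjusted p = 0.0446, lost without CBP-KO_1, CBP-KO_53, CBP-KO_55, p300-KO_18, p300-KO_287, p300-KO_289, WT_4 or WT_7 (limma adjusted p up to 0.142), with the sex covariate (limma adjusted p = 0.0606) and with edgeR (adjusted p = 0.0504). That call was also lost without the filter on low values. Nsdhl lies on the X chromosome.

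Hsd17b7, the ketoreductase that completes that step (chromosome 1, 169949535 to 169969241), stood at 2695, 2493 and 2870.3 in Crebbp-KO, 1914, 1778 and 1654 in Ep300-KO, and 2175, 2444, 2527, 1788 and 2279 in WT. All Crebbp-KO libraries were above all Ep300-KO libraries, with WT between and overlapping both. Group levels were 2686 ± 189 in Crebbp-KO, 1782 ± 129.6 in Ep300-KO and 2243 ± 288.8 in WT. The direct difference was log2 0.59 ± 0.11, limma adjusted p = 0.00736 and was called in every alternative that was run, while the differences from WT were 0.27 in Crebbp-KO and -0.32 in Ep300-KO (limma adjusted p = 0.137 and 0.0596). The difference between Ep300-KO and WT was called without WT_46 (limma adjusted p = 0.00569). Its promoter above holds 2 CCAAT boxes and 1 E-box in the stretch shown. With Msmo1 and Nsdhl, all 3 genes of the removal of the carbon 4 methyl groups were thus called higher in Crebbp-KO than in Ep300-KO.

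Cyp51, which removes the methyl group at carbon 14 of lanosterol, stood at 11731, 12144 and 12679.8 in Crebbp-KO, 11103, 8888 and 8524 in Ep300-KO, and 12447, 11469, 12182, 13178 and 10275 in WT. Here it was Ep300-KO that left the WT range, in p300-KO_287 and p300-KO_289 but not in p300-KO_18, while Crebbp-KO lay inside it. Cyp51 was lower in Ep300-KO than in WT (log2 -0.33 ± 0.09, limma adjusted p = 0.0346), lost without CBP-KO_53, p300-KO_287, p300-KO_289, WT_4, WT_7, WT_41 or WT_46 (limma adjusted p up to 0.154). Quantile normalization, library weights and the fit of the compared groups alone lost that call too. The knockouts differed by log2 0.37 ± 0.10, limma adjusted p = 0.0417, lost without CBP-KO_1, CBP-KO_53, CBP-KO_55, p300-KO_287, p300-KO_289, WT_4, WT_7 or WT_41 (limma adjusted p up to 0.137). This second call was also lost with quantile normalization and without the filter on low values. Of the exon length of Cyp51, 3.76% is shared with Akap9 on the opposite strand.

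Sc5d, the sterol C5-desaturase, stood at 6721, 6626 and 6606 in Crebbp-KO, 5566, 5316 and 4537 in Ep300-KO, and 6259, 6246, 6455, 5909 and 5383 in WT. Crebbp-KO lay just above the highest WT library and p300-KO_287 and p300-KO_289 lay below the lowest WT library. The direct difference was log2 0.38 ± 0.08, limma adjusted p = 0.0136, called in every alternative, and Ep300-KO differed from WT by -0.24 with no call (limma adjusted p = 0.0542), but was called without p300-KO_18 or WT_288 (limma adjusted p = 0.0447 and 0.0264).

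Ebp, the sterol isomerase, was the 1 sterol enzyme called higher in Ep300-KO than in WT, at 1472, 1623 and 1682 in Crebbp-KO, 1899, 1578 and 1859 in Ep300-KO, and 1570.4, 1391, 1456, 1229 and 1359 in WT. All Ep300-KO libraries were above all WT libraries and overlapped Crebbp-KO. Ebp was higher in Ep300-KO than in WT (log2 0.34 ± 0.09, limma adjusted p = 0.0279), lost without p300-KO_18, p300-KO_289, WT_7 or WT_288 (limma adjusted p up to 0.115) and with the sex covariate (limma adjusted p = 0.103). Ebp too lies on the X chromosome. In the direct contrast it had a log2 difference of -0.16 (limma adjusted p = 0.37).

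The other 5 sterol enzymes were called in no comparison over all 11 libraries. Sqle, squalene epoxidase, and Dhcr7, the last enzyme of one route to cholesterol, lay higher in every Crebbp-KO than in every Ep300-KO library, with direct differences of 0.27 and 0.31 (limma adjusted p = 0.085 and 0.0756). Sqle was called between the knockouts without WT_46 (limma adjusted p = 0.0374), and lower in Ep300-KO than in WT without both WT_46 and p300-KO_18 (limma adjusted p = 0.0407). Dhcr7 was called between the knockouts without p300-KO_18 (limma adjusted p = 0.0354), and in Crebbp-KO against WT without p300-KO_18 (limma adjusted p = 0.0499). Fdft1, squalene synthase, and Lss overlapped between the knockouts, at 0.35 and 0.47 (limma adjusted p = 0.129 and 0.0651). Fdft1 was called between the knockouts without p300-KO_18 (limma adjusted p = 0.0397), and Lss without CBP-KO_1 or p300-KO_18 (limma adjusted p = 0.0323 and 0.0463). Tm7sf2, a sterol reductase of the C14 double bond, was at -0.01 (limma adjusted p = 0.927), but 12.1% of its exon length is shared with Vps51, as 18.3% of that of Fdft1 is with Ctsb.

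**Figure D3:**
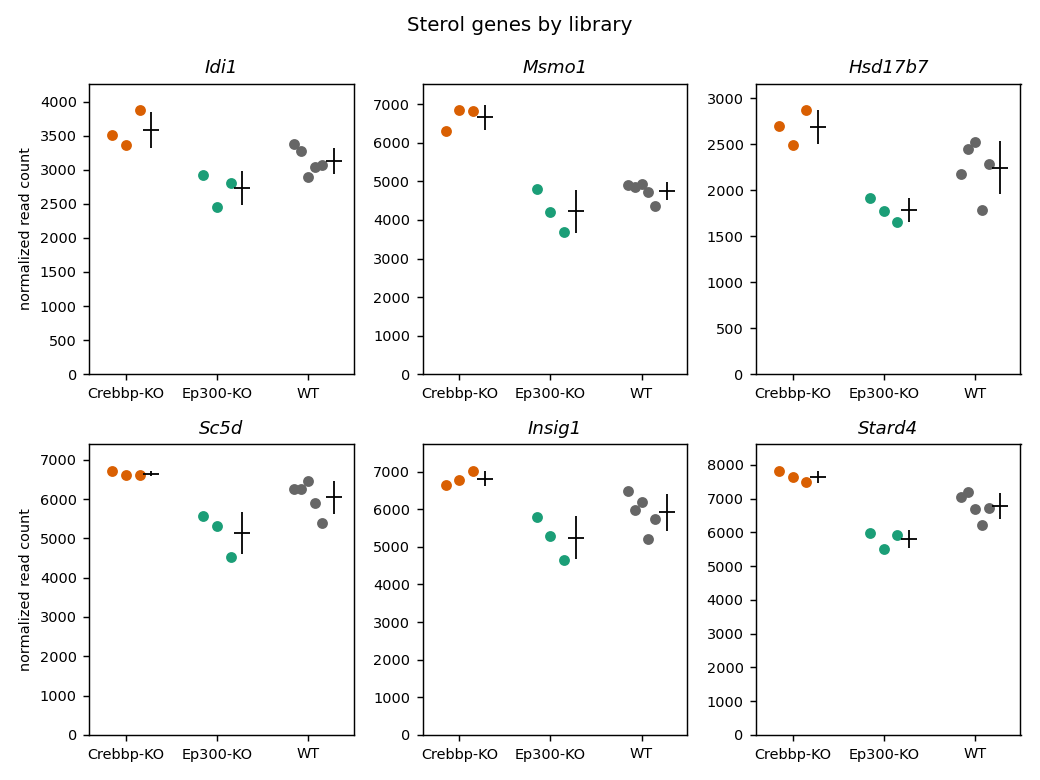
Normalized read counts of 6 genes that differed between the knockouts (y axis from 0), 1 point per library with mean and SD beside the points, for 3 Crebbp-KO, 3 Ep300-KO and 5 WT libraries. Msmo1 stands between 6297 and 6853 in Crebbp-KO, above all other libraries, which reach 4933.

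Taken over the 18 mevalonate and sterol enzymes, each library's mean deviation from the WT mean shows how the libraries line up. It was log2 0.08, 0.17 and 0.23 in Crebbp-KO, 0.01, -0.30 and -0.24 in Ep300-KO, and 0.09, -0.01, 0.10, -0.01 and -0.17 in WT. Thus p300-KO_18 sat among the WT libraries, the other Ep300-KO libraries sat below all of WT, and CBP-KO_1 sat within the WT range while CBP-KO_53 and CBP-KO_55 were above it. Over these enzymes, 16 of 18 differences were above 0 in Crebbp-KO against WT, 17 of 18 below 0 in Ep300-KO against WT, and 16 of 18 above 0 between the knockouts.

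The libraries differ in sex as their transcripts show it, so the direct median over the 18 enzymes was also taken within the libraries with high Y-linked transcripts and within those with high Xist. It was 0.40 in the Y-linked set (1 Crebbp-KO against 1 Ep300-KO library, 17 of 18 above 0) and 0.47 in the Xist set (2 against 1, 16 of 18 above 0), both without p300-KO_18. For Crebbp-KO against WT it was 0.12 (1 against 2 libraries) and 0.18 (2 against 3), and for Ep300-KO against WT -0.25 (1 against 2) and -0.28 (1 against 3). The direction of these medians was the same within each set as over all libraries. Calls of single genes did change in the fit with a sex covariate, which also leaves out p300-KO_18. Ebp, Srebf2 and Stard4 then lost their calls in Ep300-KO against WT (limma adjusted p = 0.103, 0.0687 and 0.0523), and Nsdhl, Elovl5 and Nr1h2 lost theirs between the knockouts (limma adjusted p = 0.0606, 0.152 and 0.084). Calls were gained by Abca1 in Crebbp-KO against WT (limma adjusted p = 0.00389), by Hmgcs1, Fdps, Sc5d and Acss2 in Ep300-KO against WT (limma adjusted p = 0.0378, 0.0245, 0.0499 and 0.0224), and by Fdps, Fdft1, Lss, Dhcr7, Fads2 and Abca1 between the knockouts (limma adjusted p between 0.0191 and 0.0436).

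**Figure D4:**
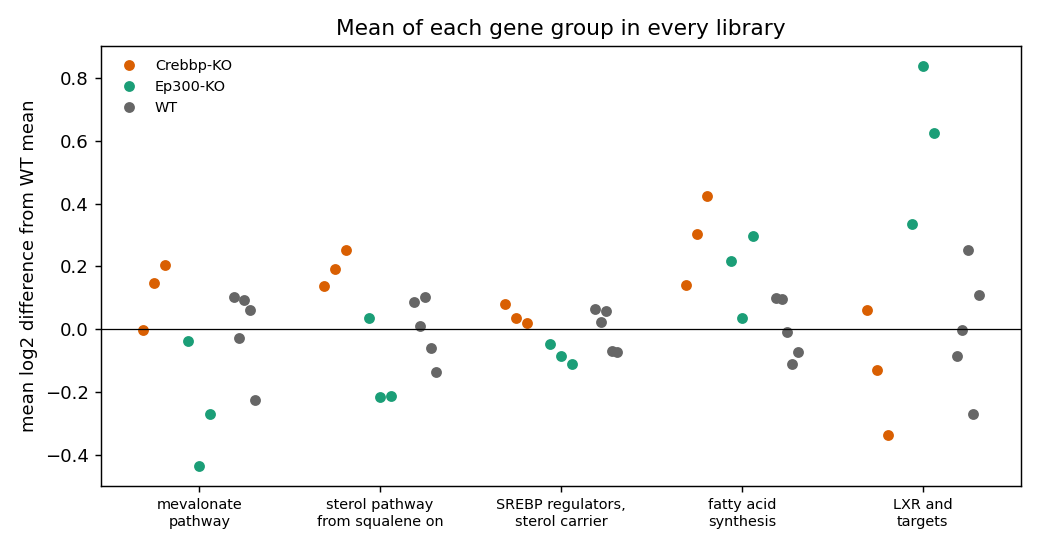
Mean log2 deviation from the WT mean (y axis) per library for each functional group of genes, 1 point per library of Crebbp-KO, Ep300-KO and WT. For the mevalonate and sterol genes p300-KO_287 and p300-KO_289 lie lowest, and for the LXR genes the 3 Ep300-KO libraries lie highest.

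Of the 6 genes of SREBP control and sterol transport, none was called in Crebbp-KO against WT by limma or edgeR, whereas DESeq2 called 2 and 3 had an unadjusted p below 0.05. Srebf2 and Stard4 were called lower in Ep300-KO than in WT, and Insig1 and Stard4 were called higher in Crebbp-KO than in Ep300-KO. Medians were log2 0.07 in Crebbp-KO against WT, -0.11 in Ep300-KO against WT and 0.08 between the knockouts.

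Srebf2, which encodes the main activator of the sterol genes, stood at 36264, 33780.3 and 33509.7 in Crebbp-KO, 35779.7, 34606 and 32523 in Ep300-KO, and 41724, 38684, 40462, 38241 and 36251 in WT. Both knockouts tended low, with all Ep300-KO libraries below all WT libraries and Crebbp-KO overlapping only WT_288, by a margin of a few reads. The difference from WT was -0.18 in Crebbp-KO (limma adjusted p = 0.073) and log2 -0.19 ± 0.06, limma adjusted p = 0.0484 in Ep300-KO. The difference in Crebbp-KO was called without WT_288 (limma adjusted p = 0.047). The call in Ep300-KO was the least stable of all, being lost without any 1 of CBP-KO_1, CBP-KO_53, CBP-KO_55, p300-KO_18, p300-KO_287, p300-KO_289, WT_4, WT_7, WT_41 or WT_46 (limma adjusted p up to 0.191). EdgeR (adjusted p = 0.0585) and the sex covariate (limma adjusted p = 0.0687) lost that call as well. So did quantile normalization, TMM scaling, library weights, the lack of a filter on low values and the fit of the compared groups alone. Between the knockouts the difference was 0.01 (limma adjusted p = 0.949). Of the 18 mevalonate and sterol enzymes, 8 were called higher in Crebbp-KO in that contrast (background 4.79%). Any link between the level of Srebf2 and these calls was not tested.

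Insig1, the retention protein of SCAP and itself a target of SREBPs, stood at 6646, 6787 and 7024 in Crebbp-KO, 5801, 5290.4 and 4649.8 in Ep300-KO, and 6499, 5989, 6183, 5204 and 5733 in WT. Crebbp-KO was above all WT and all Ep300-KO libraries. The direct difference was log2 0.38 ± 0.09, limma adjusted p = 0.0187, lost without CBP-KO_53, CBP-KO_55 or p300-KO_289 (limma adjusted p up to 0.0731). Insig1 was called lower in Ep300-KO than in WT only without both WT_46 and p300-KO_18 (limma adjusted p = 0.029). Its paralog Insig2 had 1555 ± 96.4 in Crebbp-KO, 1593 ± 102 in Ep300-KO and 1649.6 ± 146 in WT, with a direct difference of -0.03 (limma adjusted p = 0.859).

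Stard4, a soluble carrier that moves sterol between membranes, stood at 7826, 7639 and 7479.7 in Crebbp-KO, 5982, 5493 and 5934 in Ep300-KO, and 7041, 7204, 6689, 6219 and 6732 in WT. The 3 groups did not overlap, with Crebbp-KO on top, WT between and Ep300-KO lowest. It was lower in Ep300-KO than in WT (log2 -0.22 ± 0.06, limma adjusted p = 0.0221), lost without p300-KO_287, p300-KO_289 or WT_7 (limma adjusted p up to 0.094) and with the sex covariate (limma adjusted p = 0.0523). The direct difference was log2 0.40 ± 0.06, limma adjusted p = 0.00217 and was called in every alternative that was run. Crebbp-KO differed from WT by 0.18 (limma adjusted p = 0.0753).

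Srebf1, which encodes SREBP1, was at 11845 ± 404 in Crebbp-KO, 10656 ± 355 in Ep300-KO and 10975 ± 664 in WT, and Scap at 4588 ± 117 in Crebbp-KO, 5103 ± 173 in Ep300-KO and 4494 ± 305 in WT. Neither was called in any comparison over all libraries, with direct differences of 0.15 and -0.15 (limma adjusted p = 0.148 and 0.176). Scap differed by 0.19 in Ep300-KO against WT (limma adjusted p = 0.0652), called without WT_4 (limma adjusted p = 0.0332). Of the exon length of Scap, 13.2% is shared with 5830462I19Rik.

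The 10 fatty acid genes had medians above 0 in both knockouts, at log2 0.18 in Crebbp-KO and 0.14 in Ep300-KO, and the knockouts differed by a median of 0.09. Scd2, Elovl6 and Fads2, which desaturate and elongate fatty acids, were called higher in Crebbp-KO than in WT. None was called in Ep300-KO against WT by limma or edgeR, DESeq2 called 2, and 3 had an unadjusted p below 0.05. 

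Scd2, a stearoyl-CoA desaturase that puts the first double bond into saturated fatty acids (chromosome 19, 44293674 to 44306864), stood at 21152, 30054 and 30744 in Crebbp-KO, 24307, 16777 and 22949.6 in Ep300-KO, and 17384, 16765, 18098, 14461 and 14752 in WT. Every Crebbp-KO library was above every WT library, and CBP-KO_53 and CBP-KO_55 were the highest of all. Ep300-KO spanned the range between, with p300-KO_287 within WT. Group levels were 27317 ± 5349.8 in Crebbp-KO, 21345 ± 4013 in Ep300-KO and 16292 ± 1613 in WT. Scd2 was higher in Crebbp-KO than in WT (log2 0.73 ± 0.14, limma adjusted p = 0.00708), a call made in every alternative that was run, and differed by 0.38 in Ep300-KO against WT (limma adjusted p = 0.104) and by 0.35 between the knockouts (limma adjusted p = 0.179). Scd2 was called in Ep300-KO against WT without p300-KO_287 (limma adjusted p = 0.0317), and between the knockouts without CBP-KO_1 (limma adjusted p = 0.0431). Its paralog Scd1 stood at 41658, 40167 and 38411 in Crebbp-KO, 42786, 45274 and 45043 in Ep300-KO, and 39193, 38367, 41988, 28775 and 37497 in WT, with WT_46 the lowest by far, and was called nowhere (log2 0.12 in Crebbp-KO and 0.27 in Ep300-KO against WT, limma adjusted p = 0.522 and 0.0941). Reads that match both of these related genes could have been assigned to either or neither.

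Elovl6, which elongates palmitate, stood at 1547, 1856 and 2192 in Crebbp-KO, 1774, 1412 and 1439 in Ep300-KO, and 1347, 1285, 1436, 1292 and 1176 in WT. Crebbp-KO was above WT in every library, with CBP-KO_1 nearest to WT. It was higher in Crebbp-KO than in WT (log2 0.50 ± 0.11, limma adjusted p = 0.0165), lost without CBP-KO_53 or CBP-KO_55 (limma adjusted p up to 0.0957).

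Fads2, the delta-6 desaturase of polyunsaturated fatty acids, stood at 2893, 2978 and 3247 in Crebbp-KO, 2550.2, 1854 and 2479.7 in Ep300-KO, and 2364, 2262, 1876, 2044 and 1902 in WT. All Crebbp-KO libraries were above all 8 others. The difference from WT was log2 0.54 ± 0.11, limma adjusted p = 0.00926, lost without CBP-KO_55 (limma adjusted p = 0.0557), and the direct difference of 0.42 just missed the call (limma adjusted p = 0.0506) but passed without WT_4 or WT_46 (limma adjusted p = 0.0489 and 0.0488). Its partner in the pathway, Fads1, had 2729.8 ± 485 in Crebbp-KO, 2584 ± 413 in Ep300-KO and 2438 ± 284 in WT and was not called (log2 0.16 against WT in Crebbp-KO, limma adjusted p = 0.552).

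Elovl5, the elongase of polyunsaturated fatty acids, stood at 4215, 3849 and 4138 in Crebbp-KO, 3366, 3266 and 3729.8 in Ep300-KO, and 3724, 3815, 3405, 3590.0 and 3639 in WT. Crebbp-KO lay above both other groups, by a small margin. It was higher in Crebbp-KO than in Ep300-KO (log2 0.24 ± 0.07, limma adjusted p = 0.0475), lost without CBP-KO_1, CBP-KO_53, CBP-KO_55, p300-KO_18, p300-KO_287, WT_4, WT_7 or WT_288 (limma adjusted p up to 0.147), with the sex covariate (limma adjusted p = 0.152) and with edgeR (adjusted p = 0.0516). That call was also lost with quantile normalization, with library weights, without the filter on low values and in the fit of the compared groups alone.

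The enzymes that build the chain were called in no comparison over all libraries. Fasn, fatty acid synthase, had 26233 ± 3431 in Crebbp-KO, 24910.4 ± 1564 in Ep300-KO and 22748 ± 1533 in WT. Acaca, the acetyl-CoA carboxylase that commits carbon to fatty acids, had 5966 ± 398 in Crebbp-KO, 6215 ± 645 in Ep300-KO and 5615 ± 387 in WT. Across Acly, Acss2, Acaca and Fasn the differences from WT were 0.09, 0.31, 0.09 and 0.20 in Crebbp-KO and -0.02, 0.58, 0.14 and 0.13 in Ep300-KO. None of these 8 differences was called by limma (the lowest adjusted p was 0.121, for Acss2 in Ep300-KO), but Fasn was called higher in Crebbp-KO without CBP-KO_1 (limma adjusted p = 0.0366).

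The LXR genes differed between the knockouts in the other direction from the sterol enzymes. Abca1 and Abcg1, which export cholesterol from the cell, were called higher in Ep300-KO than in WT, and Abcg1 was called lower in Crebbp-KO than in Ep300-KO. Nr1h2, which encodes LXR beta, was called lower in Crebbp-KO than in both other groups. With 3 genes, each median is the value of 1 gene. It was log2 -0.37 (Nr1h2) in Crebbp-KO against WT, 0.85 (Abcg1) in Ep300-KO against WT and -0.48 (Abca1) between the knockouts. In Crebbp-KO against WT, Abca1 lay above 0 (log2 0.56, not called).

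Nr1h2 (chromosome 7, 44549616 to 44553951) stood at 5223, 4977 and 5085 in Crebbp-KO, 6184, 6020.0 and 6256 in Ep300-KO, and 6287, 6359.5, 6994, 7197 and 6112 in WT. The Crebbp-KO libraries agreed closely and lay below all 8 others, while Ep300-KO overlapped the lower part of WT. Group levels were 5095 ± 123 in Crebbp-KO, 6153 ± 121 in Ep300-KO and 6589.9 ± 475 in WT. It was lower in Crebbp-KO than in WT (log2 -0.37 ± 0.06, limma adjusted p = 0.00281), called in every alternative, and lower than in Ep300-KO (log2 -0.27 ± 0.07, limma adjusted p = 0.0235), lost without CBP-KO_53, CBP-KO_55, p300-KO_18 or p300-KO_289 (limma adjusted p up to 0.0893) and with the sex covariate (limma adjusted p = 0.084).

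Abca1 (chromosome 4, 53030787 to 53159895) stood at 4303, 3184 and 2983 in Crebbp-KO, 3839, 7044 and 4128 in Ep300-KO, and 2006, 2418, 2665, 1943 and 2773 in WT. Both knockouts were above WT in every library, and p300-KO_287 stood far above the rest. Group levels were 3490.0 ± 712 in Crebbp-KO, 5004 ± 1773 in Ep300-KO and 2361 ± 376 in WT. It was higher in Ep300-KO than in WT (log2 1.04 ± 0.19, limma adjusted p = 0.00437), called in every alternative, and was not called in Crebbp-KO against WT (log2 0.56, limma adjusted p = 0.0969) or between the knockouts (log2 -0.48, limma adjusted p = 0.183). The difference between Crebbp-KO and WT was called without p300-KO_287 (limma adjusted p = 0.0304).

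Abcg1 (chromosome 17, 31057675 to 31117988) was much less abundant per kilobase, and its normalized reads stood at 269, 258 and 175 in Crebbp-KO, 452, 723 and 763 in Ep300-KO, and 355, 346, 483, 217 and 396 in WT. Ep300-KO lay above Crebbp-KO in every library and overlapped WT in p300-KO_18 only. Its difference between the knockouts was the largest among the 37 genes (log2 -1.45 ± 0.28, limma adjusted p = 0.00701) and was called in every alternative. It was higher in Ep300-KO than in WT (log2 0.85 ± 0.25, limma adjusted p = 0.0432), lost without CBP-KO_53, p300-KO_287, p300-KO_289, WT_4, WT_7 or WT_288 (limma adjusted p up to 0.166). That call was also lost with quantile normalization, with library weights, without the filter on low values and in the fit of the compared groups alone. Abcg1 was not called in Crebbp-KO against WT (log2 -0.60, limma adjusted p = 0.174), but was called lower without WT_46 (limma adjusted p = 0.0369).

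Macrophages also express Abca1 and Abcg1. Of 13 tested macrophage markers, 13 lay below WT in Crebbp-KO (median log2 -1.63), of which 7 were called lower (background 4.88%). In Ep300-KO, 7 lay above WT and 6 below (median 0.06), and 1, Mpeg1, was called lower (background 6.09%). Between the knockouts 12 of 13 lay lower in Crebbp-KO (median -1.74), of which 4 were called lower (background 4.63%). Mpeg1 had the most reads of the list, at 1372 ± 311 in Crebbp-KO, 1466 ± 179 in Ep300-KO and 3561 ± 1688 in WT. Csf1r, at 377 ± 47.0, 359 ± 67.7 and 416 ± 44.7 in the same groups, was called in no comparison. C1qa, a defining marker of tissue macrophages, was at 4.38 ± 0.446 in Crebbp-KO, 19.2 ± 10.3 in Ep300-KO and 20.8 ± 17.8 in WT. C1qb was at 2.04 ± 1.97, 17.4 ± 14.7 and 37.7 ± 39.7 in the same groups, and C1qc at 2.62 ± 2.74, 21.8 ± 19.8 and 40.2 ± 40.8. In Crebbp-KO against WT, C1qb and C1qc were called lower (limma adjusted p = 0.0242 and 0.0244) and C1qa was not called (limma adjusted p = 0.199). Of 6 tested plasma cell markers, 3 were called higher in Ep300-KO than in WT (background 5.84%) and 3 lower in Crebbp-KO than in Ep300-KO (background 4.63%). In Crebbp-KO against WT, 1, Irf4, was called lower (log2 -0.73, limma adjusted p = 0.0029, background 4.88%). The part of either cell type in these results was not tested. Of 5 other LXR genes, Nr1h3 (LXR alpha), Mylip, Lpcat3, Arl4c and Ttc39b, none was called in any comparison by limma, edgeR or DESeq2, with 0 at an unadjusted p below 0.05 in Crebbp-KO against WT and 1 in each of the other comparisons. Nr1h3 was scarce, at 20.4 ± 8.26 in Crebbp-KO, 52.1 ± 9.54 in Ep300-KO and 24 ± 13.9 in WT.

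**Figure D5:**
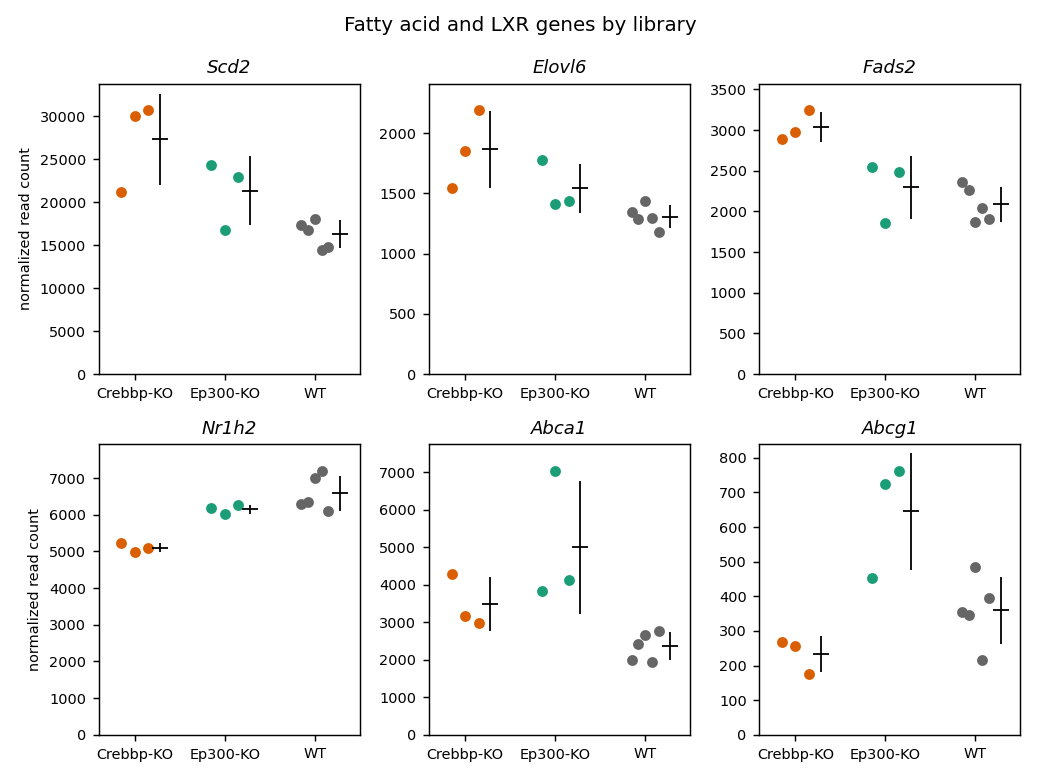
Normalized read counts of Scd2, Elovl6, Fads2, Nr1h2, Abca1 and Abcg1 (y axis from 0), 1 point per library with mean and SD beside the points, for 3 Crebbp-KO, 3 Ep300-KO and 5 WT libraries. Nr1h2 lies lowest in Crebbp-KO, between 4977 and 5223, and Abcg1 lies between 452 and 763 in Ep300-KO.

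Of 19 other sterol and isoprenoid genes, 17 were tested, and Ch25h and Cyp7b1, which make and modify oxysterols, were at 0 in every library. In Crebbp-KO against WT, 1 of the 17 was called, lower; in Ep300-KO against WT, 3 were called, all higher; between the knockouts, 2 were called, both lower in Crebbp-KO. As shares of the 17 these calls were 5.88%, 17.6% and 11.8%, against 8.36%, 11.9% and 9.42% of all genes tested. Cyp27a1, the mitochondrial sterol 27-hydroxylase, had 457 ± 72.8 in Crebbp-KO, 1020.4 ± 155 in Ep300-KO and 981 ± 129 in WT and was lower in Crebbp-KO than in WT (log2 -1.10 ± 0.14, limma adjusted p = 0.000546) and than in Ep300-KO (log2 -1.16 ± 0.15, limma adjusted p = 0.000662). Its Crebbp-KO libraries had 541, 413 and 416 reads, below 1039, 1165 and 857 in Ep300-KO and 846, 1117, 1105, 974 and 862 in WT. Macrophages express Cyp27a1 too, and the part of the macrophage markers, lower in Crebbp-KO than in both other groups as given above, was not tested.

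Npc2, the lysosomal cholesterol carrier, was higher in Ep300-KO than in WT (log2 0.33 ± 0.06, limma adjusted p = 0.0046) and lower in Crebbp-KO than in Ep300-KO (log2 -0.31 ± 0.07, limma adjusted p = 0.0145), the second of these lost without CBP-KO_55, p300-KO_18 or p300-KO_287 (limma adjusted p up to 0.0531). Lipa, the lysosomal acid lipase, was higher in Ep300-KO than in WT (log2 0.36 ± 0.08, limma adjusted p = 0.0155), lost without p300-KO_18 or p300-KO_287 (limma adjusted p up to 0.0642). Acat1, the mitochondrial thiolase, was higher in Ep300-KO than in WT (log2 0.26 ± 0.08, limma adjusted p = 0.0437), lost without any 1 of 9 libraries, namely CBP-KO_1, CBP-KO_53, CBP-KO_55, p300-KO_18, p300-KO_289, WT_7, WT_41, WT_46 or WT_288 (limma adjusted p up to 0.198). Npc2 and Lipa both act on cholesterol in the lysosome. Lipa also lay above WT in every Crebbp-KO library, with no call (log2 0.28, limma adjusted p = 0.0605). Between the knockouts Lipa differed by log2 -0.08 (limma adjusted p = 0.657).

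Of 27 other fatty acid genes, 21 were tested. In Crebbp-KO against WT, 2 were called higher; in Ep300-KO against WT, 2 higher and 3 lower; between the knockouts, 4 higher and 1 lower in Crebbp-KO. As shares of the 21 these calls were 9.52%, 23.8% and 23.8%, against 8.36%, 11.9% and 9.42% of all genes tested. Mid1ip1, an activator of acetyl-CoA carboxylase, had 7123 ± 147 in Crebbp-KO, 5344 ± 227 in Ep300-KO and 6562 ± 196 in WT. It was lower in Ep300-KO than in WT (log2 -0.30 ± 0.05, limma adjusted p = 0.00192) and higher in Crebbp-KO than in Ep300-KO (log2 0.42 ± 0.05, limma adjusted p = 0.000573), and both calls held whichever single library was left out.

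The other genes named here are long-chain acyl-CoA synthetases, which activate fatty acids for use. Acsl3 had 3364 ± 120.4 in Crebbp-KO, 2494 ± 169.9 in Ep300-KO and 2908 ± 52.3 in WT and was higher in Crebbp-KO than in Ep300-KO (log2 0.43 ± 0.06, limma adjusted p = 0.00129). It was higher in Crebbp-KO than in WT (log2 0.21 ± 0.06, limma adjusted p = 0.038), lost without any 1 of 9 libraries, namely CBP-KO_1, CBP-KO_53, CBP-KO_55, p300-KO_289, WT_4, WT_7, WT_41, WT_46 or WT_288 (limma adjusted p up to 0.125). Acsl3 was lower in Ep300-KO than in WT (log2 -0.22 ± 0.06, limma adjusted p = 0.0226), lost without p300-KO_287 or p300-KO_289 (limma adjusted p up to 0.0977).

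Acsl4, which prefers polyunsaturated fatty acids, had 5764 ± 75.3 in Crebbp-KO, 4162 ± 233 in Ep300-KO and 4561 ± 381 in WT and was higher in Crebbp-KO than in WT (log2 0.34 ± 0.07, limma adjusted p = 0.00895) and than in Ep300-KO (log2 0.47 ± 0.08, limma adjusted p = 0.00259). Acsl1 had 2387 ± 101 in Crebbp-KO, 1717 ± 79.3 in Ep300-KO and 2093 ± 170.2 in WT and was higher in Crebbp-KO than in Ep300-KO (log2 0.48 ± 0.08, limma adjusted p = 0.0044). It was lower in Ep300-KO than in WT (log2 -0.28 ± 0.08, limma adjusted p = 0.0294), lost without p300-KO_18, p300-KO_287, p300-KO_289, WT_4, WT_7 or WT_288 (limma adjusted p up to 0.115). Another such synthetase, Acsl5, named after its values were seen, had 17948 ± 788 in Crebbp-KO, 19362 ± 1493 in Ep300-KO and 17839.5 ± 1150.2 in WT and was not called between the knockouts (log2 -0.11, limma adjusted p = 0.398).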

How the data were processed

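RNA from sorted GC B cells of 11 libraries was measured. The authors deposited 1 table of gene counts divided by library size factors, a signal of normalized reads per gene. Per the submitters' processing notes, CASAVA 1.8, HISAT2, featureCounts and DESeq2 were used with mm10; settings and the role of each are not given in the sources used here. Every value was a whole multiple of 1 read's worth in its library (tolerance 1e-06), so read numbers were recovered (100% of values whole) for count tests as alternatives. The library kit named in the labels, TruSeq RNA v2, keeps no strand.

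The main test was limma 3.58.1 in R 4.3.3 on log2(value + 1), its prior variance following the mean, with all 11 libraries fitted at once, over the 16515 genes with a mean of at least 10, with Benjamini-Hochberg adjustment and a threshold of 0.05, two-sided. A pseudocount of 1 slightly understates changes of low genes. Alternatives were the count models of DESeq2 1.42.0 and edgeR 4.0.16 fitted to recovered reads, other pseudocounts, scalings and filters, library weights, a sex covariate (without p300-KO_18), fits of the compared groups alone, and leaving out each library, 23 in all. Leaving out WT_46 and p300-KO_18 together was added after seeing the data. Over all genes tested, limma called 1380 genes in Crebbp-KO against WT, 1970 in Ep300-KO against WT and 1556 between the knockouts, edgeR 1323, 1961 and 1525, and DESeq2 2042, 2692 and 2350. The tests were checked on simulated data. Exon lengths and coordinates are from GENCODE M21 (GRCm38, the mm10 assembly), promoters from RefSeq.

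The 37 genes and all lists were chosen with earlier results of these data known, so no list was tested. Genes called in any comparison are given per library; of other lists, up to 4 genes with the smallest p are named. Tables were prepared with Python 3.11.15 and pandas 2.3.3.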

Additional observations from a re-analysis of the deposited data

How the results depend on the processing

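Of 25 calls among the 37 genes, 9 were made under all 23 alternatives: Msmo1, Scd2 and Nr1h2 in Crebbp-KO against WT, Abca1 in Ep300-KO against WT, and Msmo1, Hsd17b7, Sc5d, Stard4 and Abcg1 between the knockouts. The other 16 were lost under at least 1, and no called difference changed sign. In Crebbp-KO against WT the number of called genes, 5 in the main test, was 5 with edgeR, 8 with DESeq2 and 10 with library weights, and ran from 3 to 6 when libraries were left out. In Ep300-KO against WT it was 7, against 6 with edgeR, 12 with DESeq2 and 3 when only the compared groups were fitted, and ran from 1 to 10 when libraries were left out. Between the knockouts it was 13, against 10 with edgeR, where Mvk, Nsdhl and Elovl5 lost their calls, and 18 with DESeq2, and ran from 5 to 18. With the sex covariate the counts were 6, 8 and 16. The LXR median in Ep300-KO against WT, 0.85 and in the main test the value of Abcg1, ran from 0.68 to 1.09. The causes were not tested. No paired analysis was possible because no replicate number occurs in more than 1 group. With 3 knockout libraries per group, adjusted p-values near 0.05 turned on single libraries, while every library held at least 53550726 reads; Abcg1 and Acss2 were the scarcest of the 37 genes per kilobase.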
